A study of Mus musculus with 40 samples.

Results

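The imprinted growth genes Igf2, H19, Dlk1, Meg3, Peg3, Mest, Plagl1, Grb10 and Igf2r make up 9 of the 26411 genes in the count tables. They were selected by gene symbol and not by a cut on their values, but with earlier results of these data known. All 9 passed the filter on low counts in both tissues. RNA of mice carrying mutations in the histone acetyltransferase genes Kat6a and Kat6b was sequenced from 24 whole embryos at embryonic day (E) 9.5 and from 16 samples of LSK cells sorted from fetal liver at E14.5. LSK cells are lineage-negative, SCA-1-positive and c-KIT-positive, the sort gate that holds fetal blood stem and progenitor cells. Each genotype had 4 libraries. The embryos were wild type (WT), Kat6a cfd/cfd (a null, Kat6a-/-), Kat6b dec/dec (a null, Kat6b-/-), Kat6a G656E/G656E (Kat6aE/E), Kat6b G577E/G577E (Kat6bE/E) or homozygous for both point mutations (double mutant). The LSK samples were WT, Kat6aE/E, Kat6bE/E or double mutant, so the nulls were not sequenced in LSK cells. Both point mutations change a glycine of the acetyl-CoA binding region, which leaves a full-length protein that is catalytically impaired, whereas the nulls stand for loss of the protein. All alleles are present in every cell from conception, the mice were of one inbred background (C57BL/6), and embryos had been picked for a similar external appearance. The study asked how far the functions of KAT6A and KAT6B depend on their catalytic activity.

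An imprinted gene is read mainly from the chromosome of 1 parent, under the control of a stretch of DNA whose methylation is set in the egg or sperm. Many such genes act on fetal growth: as a rule, genes read from the father's copy promote it and genes read from the mother's copy restrain it. In blood, imprinted growth genes are known as part of the programme of quiescent stem cells, and the Dlk1-Meg3 cluster in particular has been studied in fetal liver stem cells. Because the mice were inbred, reads of the maternal and paternal copies could not be separated and each value is the sum of both.

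Igf2 and H19 are neighbours on mouse chromosome 7 (GRCm39 chr7:142204503-142220694 and chr7:142129262-142133957, both on the minus strand), 70.5 kb apart. Igf2 encodes a paternally expressed fetal growth factor, and H19 is a maternally expressed non-coding RNA that is also the precursor of miR-675. Dlk1 (chr12:109418749-109429262) and Meg3 (chr12:109506877-109538165), both on the plus strand, lie 77.6 kb apart on chromosome 12. Dlk1 encodes a paternally expressed transmembrane protein related to the Notch ligands, and Meg3 is a maternally expressed non-coding RNA. Peg3 (chr7:6706882-6733468) encodes a zinc finger protein and Mest (chr6:30723546-30752058) a protein of the hydrolase fold, and both are paternally expressed. Plagl1 (chr10:12936248-13007438) encodes a paternally expressed zinc finger transcription factor. Grb10 (chr11:11880498-11988683), which encodes an adaptor that dampens insulin and IGF receptor signalling, and Igf2r (chr17:12901293-12988614), which encodes the receptor that removes IGF2 from the cell surface for degradation, are maternally expressed in most tissues and restrain growth.

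The results below turn on Meg3 and Dlk1, so the 250 bases upstream of their RefSeq start sites are shown, with 1 start for Dlk1 and 2 for Meg3 (GRCm38.p6, plus strand: chr12:109452573-109452822, chr12:109540746-109540995 and chr12:109545148-109545397). Capitals mark the cyclic AMP response element TGACGTCA and the TATA box, and both were searched on both strands, the TATA box as TATAAA.
Dlk1: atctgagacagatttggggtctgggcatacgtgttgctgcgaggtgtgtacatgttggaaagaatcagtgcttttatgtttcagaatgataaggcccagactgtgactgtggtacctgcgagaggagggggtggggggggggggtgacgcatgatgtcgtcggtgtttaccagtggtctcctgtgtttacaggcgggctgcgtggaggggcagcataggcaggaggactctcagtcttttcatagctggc
Meg3, first start: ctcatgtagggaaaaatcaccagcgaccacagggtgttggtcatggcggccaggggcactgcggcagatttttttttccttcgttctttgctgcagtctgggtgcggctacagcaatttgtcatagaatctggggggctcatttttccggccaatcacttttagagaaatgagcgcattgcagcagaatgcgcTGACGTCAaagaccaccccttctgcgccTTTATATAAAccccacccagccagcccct
Meg3, second start: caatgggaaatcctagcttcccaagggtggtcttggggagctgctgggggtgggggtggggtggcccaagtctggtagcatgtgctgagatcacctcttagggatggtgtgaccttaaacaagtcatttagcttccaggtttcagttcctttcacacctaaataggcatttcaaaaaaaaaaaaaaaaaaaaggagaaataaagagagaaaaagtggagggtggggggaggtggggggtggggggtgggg
Only the first of these Meg3 windows held either motif: TGACGTCA stood 57 bases upstream of the start, and the TATA box matched on both strands, in overlapping positions 29 and 25 bases upstream. TGACGTCA occurs in 1.55% and TATAAA in 12.4% of the 32851 RefSeq promoter windows of the same length. Among the other members with a promoter entry, Peg3 also held TGACGTCA, 178 bases upstream, with GGGGCCCC, a motif found in 0.889% of windows, 201 bases upstream. These are matches of letters and not measured binding sites.

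Library depth was 8401990 to 23339359 counted read pairs in embryos (median 15317052) and 12270376 to 59216547 in LSK samples (median 21709236). Levels are given as CPM, which are counts scaled to library size with the trimmed mean of M-values (TMM), and a gene was called when its false discovery rate (FDR) over all genes tested was under 0.05 with limma. Libraries of 1 genotype were separate embryos or fetuses. Kat6a ranged from 151.5 to 213.7 CPM in embryos and from 125.7 to 195.2 CPM in LSK samples, with no loss of reads in any genotype. Kat6b was higher in Kat6b-/- embryos, at 50.91 to 57.18 CPM, than in WT embryos, at 37.45 to 41.87 CPM. In LSK samples it ranged from 21.66 to 40.03 CPM. This does not check the labels, since the mutant alleles still give transcripts. Xist, read from the inactive X chromosome of females, exceeded 1000 counts in 3 of the 24 embryos (Kat6a-/- replicate 2 and Kat6b-/- replicates 2 and 3) and in 5 of the 16 LSK libraries. Some features of the LSK set touch the results. Double mutant replicates 2 to 4 came from 1 litter (1045) and had 8434 to 14700 CPM summed over 8 erythroid marker genes, against 509.8 to 6551 CPM in the other 13 libraries. All 9 LSK markers were detected in every LSK library, but their summed CPM fell into separate sets of 7 libraries (959.1 to 1250) and 9 libraries (1531 to 2027). The 4 surrogate variables of the fit, which absorb variation not tied to genotype, reproduced 5 libraries (all 4 double mutants and Kat6aE/E replicate 2) almost fully. Their leverages, computed without weights or the litter block, were 0.941 to 0.999 against at most 0.354 in the other 11.

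In WT embryos H19, Mest, Igf2 and Grb10 were among the most abundant transcripts, and the other members ranked lower. Per kilobase of exon, H19 stood highest at 1380 CPM per kb (rank 16 of 15160 genes tested), followed by Mest at 674 (rank 58), Igf2 at 523 (rank 76) and Grb10 at 333 (rank 120). Dlk1 at 97.4 (rank 660) and Peg3 at 94.2 CPM per kb (rank 689) were close to each other. The same held for Igf2r at 45 (rank 1780) and Plagl1 at 42.9 (rank 1873), and Meg3 was lowest at 24.8 (rank 3390). In WT LSK cells the order differed. H19 was still first, at 79.1 CPM per kb (rank 985 of 14115), Grb10 came next at 27.6 and Dlk1 was the third at 17.6. Igf2 was at 7.4, Igf2r at 5.38, Mest at 4.68, Peg3 at 1.36, Plagl1 at 0.491 and Meg3 at 0.393 CPM per kb.

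Every one of the 9 genes was lower in WT LSK cells than in WT embryos, and all 9 were called in an edgeR quasi-likelihood test of the 8 WT libraries, in which 80% of genes were called. The fold differences were unequal. Mest, at 1885 CPM ± 43.1 (SD, n = 4) in embryos and 13.04 ± 4.12 in LSK cells, was 147-fold lower (FDR = 2.3e-09). Plagl1 was 87.4-fold, Igf2 71.5-fold, Peg3 68.9-fold and Meg3 64.2-fold lower. H19 was 17.5-fold lower, and the growth-restraining genes Grb10 and Igf2r were 12.1-fold and 8.38-fold lower. Dlk1 differed least of the 9, with 472 CPM ± 44 in embryos and 85.04 ± 24.3 in LSK cells, a 5.57-fold difference (FDR = 4.59e-06). The median log2 difference was -6.00 for the 9 genes and -0.01 over all genes. In bulk RNA, fewer cells that express a gene and less RNA per cell cannot be told apart, and here stage, tissue and cell sort differed together.

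None of the 9 genes was called in the whole embryos of any genotype. Against WT, limma called 0 of 9 in Kat6a-/- (2.7% of all genes called), Kat6b-/- (0.475%), Kat6aE/E (0.35%), Kat6bE/E (0%) and double mutant embryos (2.72%). At an unadjusted p under 0.05 the counts were 1, 0, 1, 0 and 0 of 9, where 16.7%, 11.7%, 10.5%, 4.49% and 17.7% of all genes had such a p, and edgeR and DESeq2 also called 0 of 9 in each of these 5 comparisons. For Kat6bE/E, where no gene of the genome was called by limma, edgeR or DESeq2, 680 genes had an unadjusted p under 0.05. No member had 4 mutant libraries lying wholly above or below the 4 WT libraries, while 11.5% of genes did in Kat6a-/-, 6.64% in Kat6b-/-, 5.11% in Kat6aE/E, 2.31% in Kat6bE/E and 7.08% in double mutants. Fitted log2 differences from WT ran from -0.21 (Meg3 in Kat6bE/E) to 0.19 (H19 in Kat6a-/-), and their 95% confidence intervals reached at most 0.55.

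**Figure D1:**
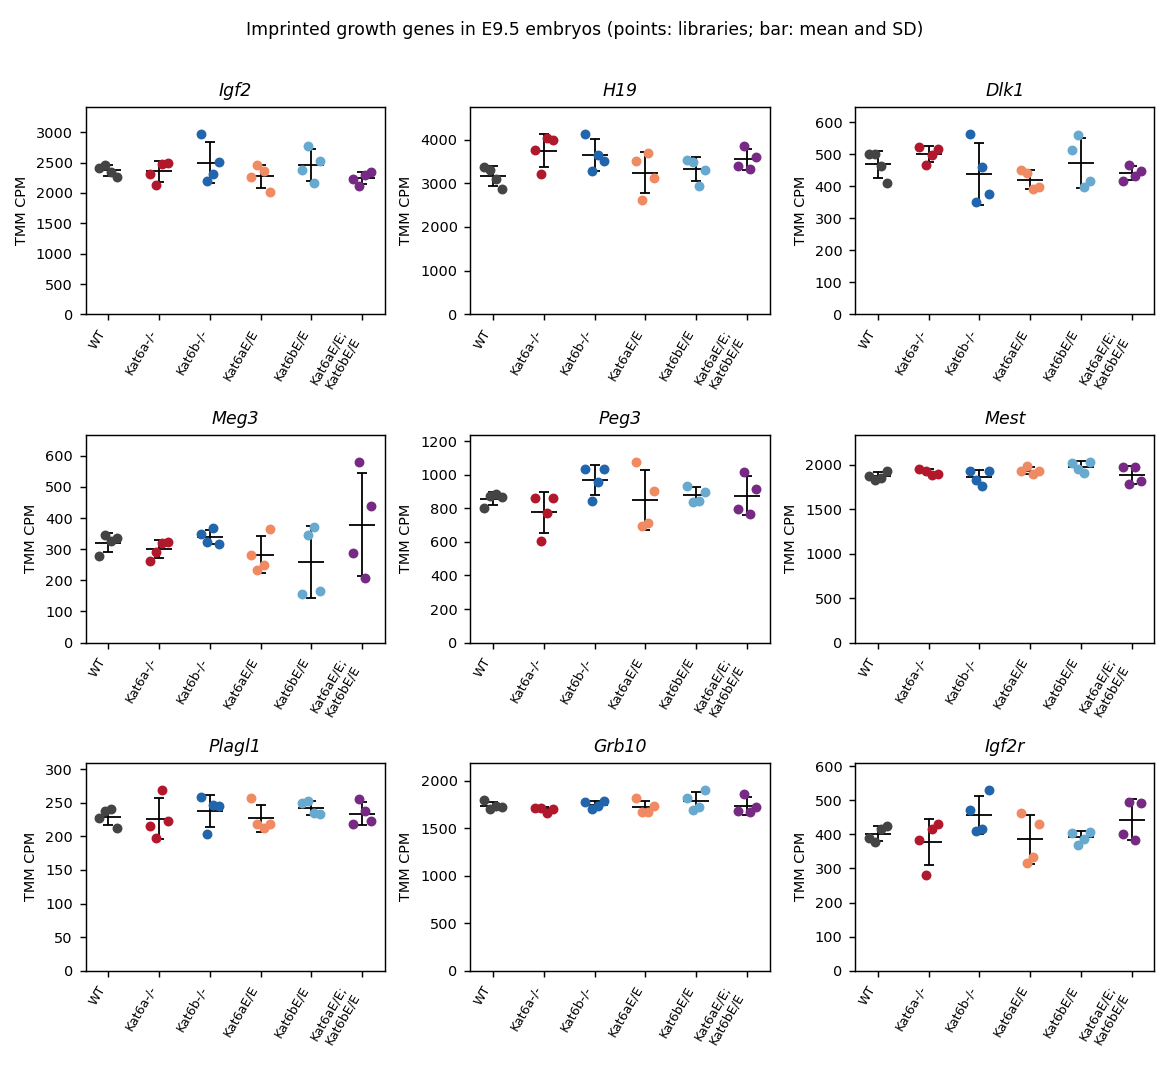
Level of each of the 9 genes in the 24 embryos by genotype, in CPM on a linear axis from 0. Points are single libraries, and bars give the mean and SD of each genotype. Each mutant genotype overlaps WT for every gene, and Meg3 has the widest spread relative to its level (coefficient of variation within genotype 28%).

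Igf2 was at 2415, 2454, 2343 and 2266 CPM in WT embryos, and at 2310, 2134, 2475 and 2494 in Kat6a-/-, 2976, 2199, 2312 and 2505 in Kat6b-/-, 2268, 2457, 2366 and 2019 in Kat6aE/E, 2383, 2772, 2155 and 2528 in Kat6bE/E and 2226, 2122, 2287 and 2342 CPM in double mutants. The double mutants lay in the lower part of the WT range or under it, and the other genotypes spread to both sides of it. H19 read 3372, 3295, 3107 and 2860 CPM in WT and 3772, 3211, 4025 and 3987 in Kat6a-/- embryos, in which 3 of 4 libraries were above every WT library. The same held for 3 of 4 Kat6b-/- (4136, 3273, 3647 and 3518 CPM) and 3 of 4 double mutant embryos (3396, 3862, 3335 and 3590 CPM). The H19 difference in Kat6a-/- was 0.19 on the log2 scale (SE = 0.0678, FDR = 0.167). In Kat6aE/E (3516, 2623, 3693 and 3129 CPM) and Kat6bE/E embryos (3527, 3497, 2932 and 3312 CPM) 2 of 4 were above every WT library.

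Dlk1 was at 501.3, 500.3, 463.3 and 409.3 CPM in WT embryos. The 4 Kat6aE/E embryos, at 450.5, 441.7, 392.4 and 396.8 CPM, were in the lower part of that range or under it, and the 4 Kat6a-/- embryos, at 524, 466.8, 498 and 515.8 CPM, in its upper part or above it. Dlk1 in Kat6aE/E differed by -0.17 log2 from WT (SE = 0.0592, FDR = 0.298) and by -0.21 from Kat6a-/- (SE = 0.0621, FDR = 0.0834), neither of which passed with limma. With DESeq2 the second difference was called (-0.21, FDR = 0.0262). Meg3 was the most variable member, with a coefficient of variation within genotype of 28% against 3.4% for Mest and 3.7% for Grb10. Its levels were 278.3, 345.3, 325.5 and 335.9 CPM in WT, 155, 345.5, 371.6 and 166.3 in Kat6bE/E and 288.8, 580.5, 207.3 and 437.1 CPM in double mutant embryos. In both mutants the libraries stood on both sides of WT. Meg3 read 262, 291.8, 321.2 and 323.4 CPM in Kat6a-/-, 350.1, 322.9, 367.4 and 316.6 in Kat6b-/- and 282.6, 233.8, 248.1 and 366 in Kat6aE/E embryos.

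The remaining members moved little. Over the 24 embryos Mest, the steadiest, ranged from 1760 to 2032 CPM and Grb10 from 1664 to 1904 CPM. Plagl1 ranged from 197.5 to 268.8, Peg3 from 602 to 1076 and Igf2r from 282.2 to 529.8 CPM, with coefficients of variation within genotype of 8.73%, 12.6% and 13.1%. The single point mutants were also set against the null of the same gene, which addresses how far the loss of catalysis matches the loss of the protein. The double mutant was set against Kat6a-/-, from which it also differs at Kat6b. Limma called 0 of 9 members for Kat6aE/E against Kat6a-/- (2.4% of all genes called), 0 of 9 for Kat6bE/E against Kat6b-/- (0.0726%) and 0 of 9 for the double mutant against Kat6a-/- (0.0066%). At an unadjusted p under 0.05 these counts were 1 (Dlk1), 2 (Meg3 and Mest) and 1 (Dlk1), where 16.2%, 8.3% and 10.7% of all genes had such a p. EdgeR called 0 of 9 in all 3 (432, 22 and 7 genes in all), and DESeq2 called 1, 0 and 0 (530, 64 and 73 genes in all). These comparisons share their embryos with those against WT. The departure of the double mutant from the sum of the single point mutants, fitted with limma, was called for 0 of 9 members and 0% of genes (1 of 9 and 1007 of 15160 at an unadjusted p under 0.05).

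In LSK cells, Meg3 was lower in Kat6aE/E than in WT and was the only member called. Meg3 read 5.021, 4.968, 6.098 and 4.289 CPM in WT and 2.06, 3.259, 2.861 and 1.337 CPM in Kat6aE/E, on 112 to 252 and 37 to 92 read pairs per library. Every Kat6aE/E library was below every WT library. The limma estimate was -1.28 log2 (SE = 0.287, 95% confidence interval -1.89 to -0.67, FDR = 0.0413), and 1.18% of all genes were called in this comparison. In litter 753, which held 3 WT fetuses and 1 Kat6aE/E fetus, the Kat6aE/E littermate had 2.06 CPM of Meg3 against a WT mean of 5.362. The level was lower under each of the alternative settings run, from -0.95 to -1.46 log2, but the call was kept only in some. It was lost with no surrogate variables (-1.13, FDR = 1), without the litter block (FDR = 0.0971), with edgeR (FDR = 0.074) and with the summed erythroid markers as a covariate (FDR = 0.178). DESeq2 called it (FDR = 0.00759), as did the fit without litter 1045 (FDR = 0.00502). Leaving out 1 library of either genotype ended the call for 7 of the 8, all but Kat6aE/E replicate 2 (FDR = 0.0282), and the highest FDR came without Kat6aE/E replicate 1 (0.426).

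**Figure D2:**
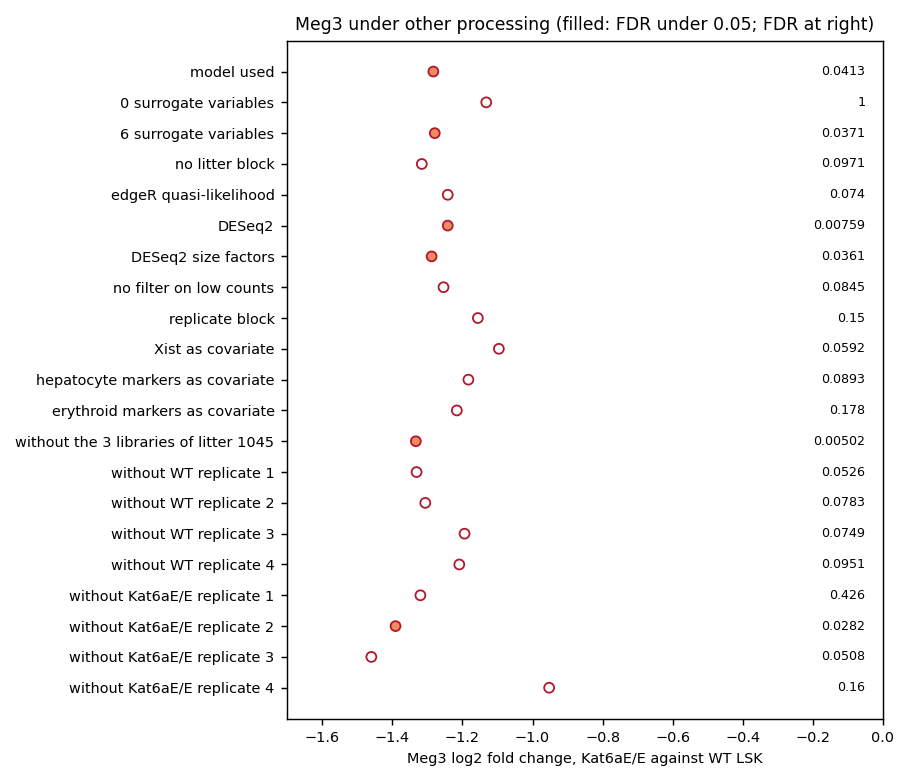
Log2 difference of Meg3 between Kat6aE/E and WT LSK cells under each setting, with the FDR of each estimate. All estimates lie below 0, and filled and open points separate settings in which the gene was and was not called.

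Dlk1, the protein-coding neighbour of Meg3, was at 88.13, 97.2, 103.7 and 49.94 CPM in WT LSK cells and at 52.17, 21.92, 53.77 and 54.62 CPM in Kat6aE/E. WT replicate 4 was within the Kat6aE/E range and the other 3 WT libraries were above it. The difference was -0.68 log2 (SE = 0.172) and missed the threshold in limma (FDR = 0.0971). It was called with 6 surrogate variables (-0.79, FDR = 0.000673), with DESeq2 (-0.72, FDR = 0.00152), without litter 1045 (-0.74, FDR = 0.000428), without WT replicate 4 (-0.89, FDR = 0.0067) and without Kat6aE/E replicate 2 (-0.76, FDR = 0.000567). Xist as a covariate also gave a call (FDR = 0.0395). Most other settings did not, among them no surrogate variables (FDR = 0.979), no litter block (FDR = 0.197) and edgeR (FDR = 0.144). Nor was Dlk1 called with erythroid markers as a covariate (FDR = 0.127) or without Kat6aE/E replicate 1 (FDR = 0.689). Rian, a non-coding RNA of the same cluster as Meg3, was at 5.225, 3.771, 6.022 and 2.842 CPM in WT and 2.06, 2.471, 1.99 and 1.951 CPM in Kat6aE/E, which did not overlap, with a log2 difference of -1.005 (SE = 0.369) that did not pass (FDR = 0.248). Rian was singled out after its values were seen.

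**Figure D3:**
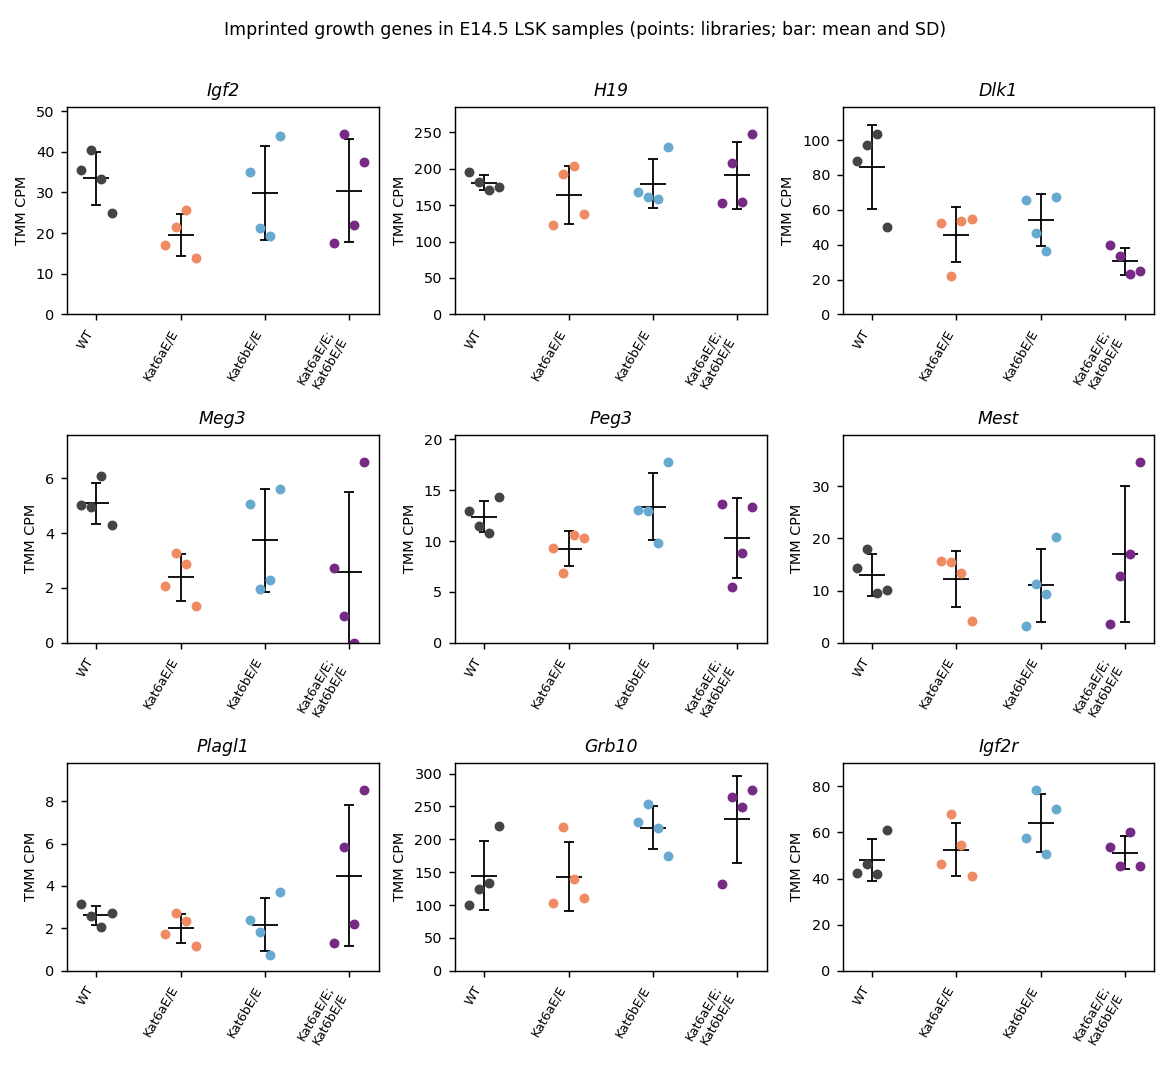
Level of each of the 9 genes in the 16 LSK libraries by genotype, in CPM on a linear axis from 0. Points are single libraries, and bars give the mean and SD of each genotype. The 4 Kat6aE/E libraries lie below the 4 WT libraries for Meg3 and Peg3, and the 4 double mutant libraries lie below WT for Dlk1.

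The paternally expressed growth factor Igf2 was at 35.39, 40.46, 33.31 and 24.87 CPM in WT and 17.15, 21.45, 25.69 and 13.98 CPM in Kat6aE/E LSK cells, with 3 of 4 Kat6aE/E libraries under the lowest WT library. Its log2 difference of -0.73 (SE = 0.298) did not pass (FDR = 0.356). Peg3 read 12.98, 11.49, 10.84 and 14.31 CPM in WT and 9.298, 6.834, 10.61 and 10.29 in Kat6aE/E. These did not overlap, and the difference of -0.40 (SE = 0.155) did not pass (FDR = 0.295). Meg3 and Peg3 were thus 2 of 9 members without overlap, where 4.08% of all genes had none. H19 was at 195.8, 181.8, 171 and 175.2 CPM in WT and 123.2, 192.2, 203.8 and 138 in Kat6aE/E, with libraries on both sides of WT. The log2 differences of the other members were -0.45 for Plagl1, -0.24 for Grb10, -0.01 for Igf2r and -0.00 for Mest, and none was called. The median point estimate was -0.40 against -0.01 over all genes, and 4 of 9 had an unadjusted p under 0.05 against 12.1% of all genes. All 9 estimates were below 0, but those of Mest (SE = 0.486) and Igf2r (SE = 0.157) were close to it. In mean CPM, without the fit, Igf2r was higher in Kat6aE/E than in WT (52.56 against 48.01). Grb10 was alike in both (143.2 against 144.6).

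In double mutant LSK cells no gene of the genome was called by limma (0% of genes, 839 at an unadjusted p under 0.05), while edgeR called 1 gene and DESeq2 78. Dlk1 was at 40.09, 33.52, 23.4 and 24.85 CPM, below every WT library, and was the only 1 of 9 members without overlap, where 4.55% of all genes had none. Its log2 difference of -0.95 (SE = 0.276) did not pass in limma (FDR = 0.517) and did in DESeq2 (-1.01, FDR = 0.00191). Meg3 spanned 2.715, 0.9716, 0 and 6.6 CPM, with replicate 4 above every WT library. The count of 0 in replicate 3 allows a level of up to 0.244 CPM (3 counts of 12270376, counting error only). The fitted difference was -1.24 (SE = 0.439, FDR = 0.637). By a calculation without weights or the litter block, alike for every gene, 80.9% of the double mutant side rested on replicate 1, the 1 double mutant outside litter 1045. Without that library, which leaves 3 double mutants of 1 litter, calls over all genes went from 0 to 2641 of 14115, and among them were Meg3 at -3.34 (FDR = 0.00192), a fitted value that includes the library with 0 counts, and Dlk1 at -0.89 (FDR = 0.00173). Against its littermate Kat6bE/E replicate 1 (litter 970), double mutant replicate 1 was lower by 0.902 log2 in Meg3 and 0.713 log2 in Dlk1, with 1 library on each side.

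In Kat6bE/E LSK cells limma, edgeR and DESeq2 called 0 of 9 members and 0% of genes (limma gave 0 of 9 members and 393 genes at an unadjusted p under 0.05). No member was without overlap, where 4% of all genes were. Meg3 read 5.075, 1.945, 2.29 and 5.618 CPM, and Dlk1 65.74, 46.69, 36.64 and 67.36 CPM, with replicates 1 and 4 near WT and replicates 2 and 3, of litter 1026, lower. The log2 differences of the 9 members ran from -0.52 (Mest) to 0.30 (Grb10), with intervals as wide as -1.83 to 0.79 for Mest. The departure of the double mutant from the sum of the single mutants was called by limma for 0 of 9 members and 0% of genes (0 of 9 and 614 genes at an unadjusted p under 0.05). Whether the effect of a genotype differed between LSK cells and embryos was tested over 12925 genes, and none passed. The Kat6aE/E effect on Meg3 differed by -1.16 log2 between the tissues (SE = 0.326, FDR = 0.673) and that on Dlk1 by -0.51 (FDR = 0.693).

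The growth-restraining genes Grb10 and Igf2r had no called difference in LSK cells. Grb10 was at 100.8, 123.8, 132.9 and 220.7 CPM in WT, 103.8, 218.3, 140.2 and 110.4 in Kat6aE/E, 226.1, 253.8, 217.8 and 174 in Kat6bE/E and 132.7, 264.9, 249.4 and 274.9 CPM in double mutants. Most Kat6bE/E and double mutant libraries were above most WT libraries, but WT replicate 4 lay among them and no difference was called. The fitted Grb10 difference was 0.30 log2 in Kat6bE/E (SE = 0.173) but -0.18 in double mutants (SE = 0.226). The latter was opposite in sign to the mean CPM, 230.5 in double mutants against 144.6 in WT. Igf2r ranged from 41.29 to 78.35 CPM over the 16 libraries. Igf2 was at 35.09, 21.25, 19.33 and 43.75 CPM in Kat6bE/E and 17.62, 44.45, 22.08 and 37.53 CPM in double mutants, with libraries above and below the WT range in both. H19 ranged from 123.2 to 248.1 CPM, Mest from 3.251 to 34.7 CPM and Plagl1 from 0.7261 to 8.524 CPM over the 16 libraries. For Mest and Plagl1 the double mutants held the highest library. In double mutants the fitted differences of H19 (-0.16), Mest (-0.65) and Plagl1 (-0.50) were below 0. Their mean CPM was nevertheless above WT, at 190.8 against 181, 17 against 12.99 and 4.477 against 2.623. Replicate 1, on which the double mutant side of the fit mostly rested for every gene, was the lowest double mutant for these genes and for Grb10. It was at 152.9 CPM for H19, 3.567 for Mest, 1.331 for Plagl1 and 132.7 for Grb10.

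**Figure D4:**
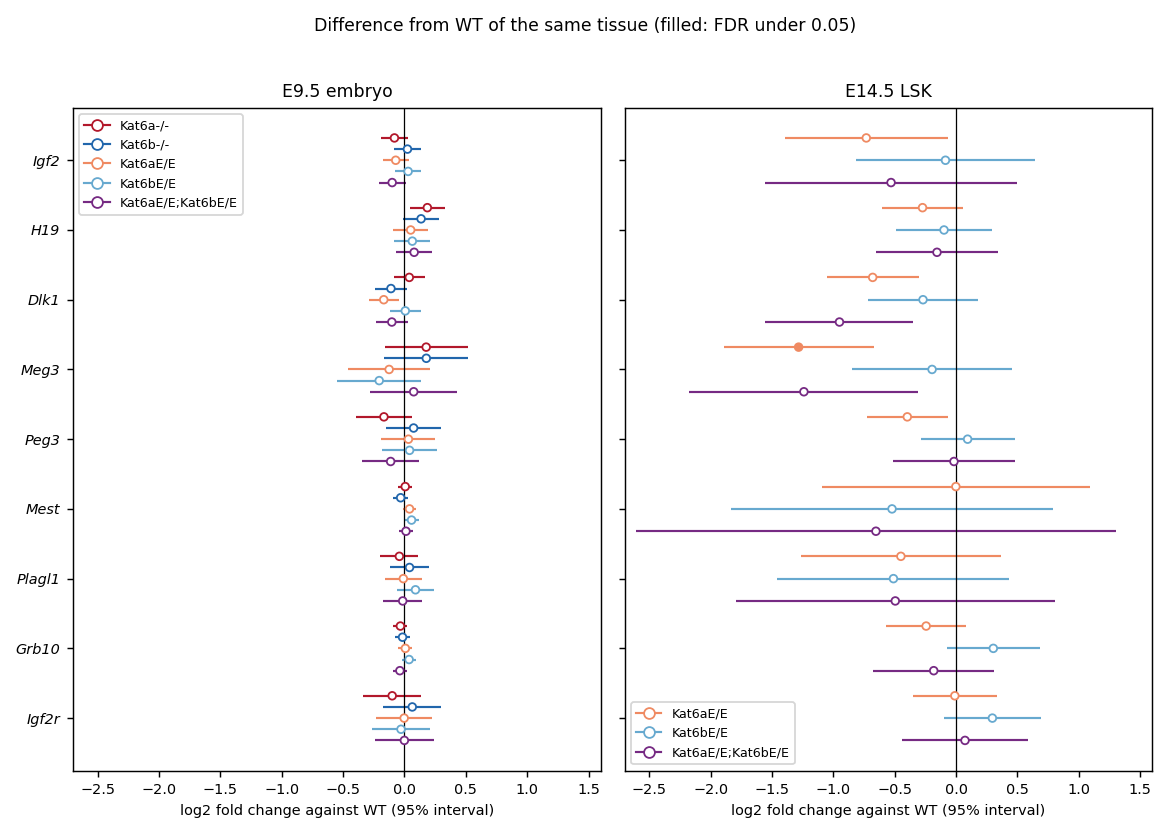
Fitted log2 difference from WT of each of the 9 genes, by genotype, in embryos and in LSK cells, with 95% confidence intervals. In embryos the intervals stay within 0.549 of 0, and in LSK cells Meg3 in Kat6aE/E, from -1.89 to -0.67, is the called difference.

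Several members moved with markers of other cell types across the LSK libraries. After removal of genotype means, Grb10 rose with the summed erythroid markers (Pearson r = 0.847, adjusted permutation p = 0.026, Spearman rho = 0.771, adjusted permutation p = 0.0489, n = 16, 36 relations, r = 0.781 without the 2 most distant libraries) and Dlk1 fell with them (r = -0.742, adjusted permutation p = 0.0338, rho = -0.718, adjusted permutation p = 0.0489, r = -0.734 without 2). Peg3 followed the 7 stroma and mesenchyme markers (r = 0.758, adjusted permutation p = 0.0391, rho = 0.765, adjusted permutation p = 0.0806, r = 0.603 without 2), and Grb10 ran against them (r = -0.746, adjusted permutation p = 0.026, rho = -0.629, adjusted permutation p = 0.0859, r = -0.663 without 2). Meg3 gave r = -0.133 with the erythroid, 0.408 with the hepatocyte and 0.421 with the stroma markers, none of which passed. Grb10 was at 217.8 to 274.9 CPM in the 7 libraries with the lower LSK marker sum and at 100.8 to 226.1 in the other 9, and Dlk1 at 21.92 to 49.94 and 40.09 to 103.7 CPM. Over all 16 libraries, after removal of genotype means, Grb10 gave r = -0.888 and Dlk1 r = 0.841 with the summed LSK markers (adjusted permutation p = 0.026 for each). These values span the gap between the sets. The relation was therefore also computed within each set, with exact permutation tests adjusted over 6 relations. Genotype means were not removed there and each set mixed the genotypes, so differences between genotypes enter these values. Grb10 fell with the LSK markers among the 9 libraries (r = -0.899, adjusted exact permutation p = 0.0266, rho = -0.667, adjusted exact permutation p = 0.353), which rested on the 2 most distant libraries (r = -0.443 without them), and gave r = -0.557 among the 7, which did not pass. Dlk1 gave r = 0.0375 among the 9 and -0.432 among the 7, and Meg3 gave -0.477 and -0.0294, none of which passed. Among those 9 libraries Meg3 was at 4.968 to 6.098 CPM in 3 WT libraries, all of litter 753, and at 1.337 to 2.861 CPM in 3 Kat6aE/E libraries. Kat6bE/E replicates 1 and 4 had 5.075 and 5.618 CPM, and double mutant replicate 1 had 2.715 CPM. The WT and Kat6aE/E libraries of the other set, replicates 4 and 2, were closer, at 4.289 and 3.259 CPM. Also in that set, Kat6bE/E replicates 2 and 3 had 1.945 and 2.29 CPM. Double mutant replicates 2 to 4 there had 0.9716, 0 and 6.6 CPM. The erythroid sum was 970.6 to 3888 CPM in WT, 509.8 to 6551 in Kat6aE/E, 1901 to 5413 in Kat6bE/E and 1268 to 14700 in double mutants, with all 8 genes detected throughout. The stroma sum was 28.36 to 47.43 CPM in WT, 16.14 to 36.27 in Kat6aE/E, 22.85 to 36.8 in Kat6bE/E and 13.18 to 29.19 in double mutants, with 3 to 7 of 7 markers detected. The sum of 10 hepatocyte markers was 110.9 to 271 CPM in WT and 110.4 to 287.1 CPM in Kat6aE/E. The part of these markers in the differences between genotypes was not tested beyond the covariate fits.

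**Figure D5:**
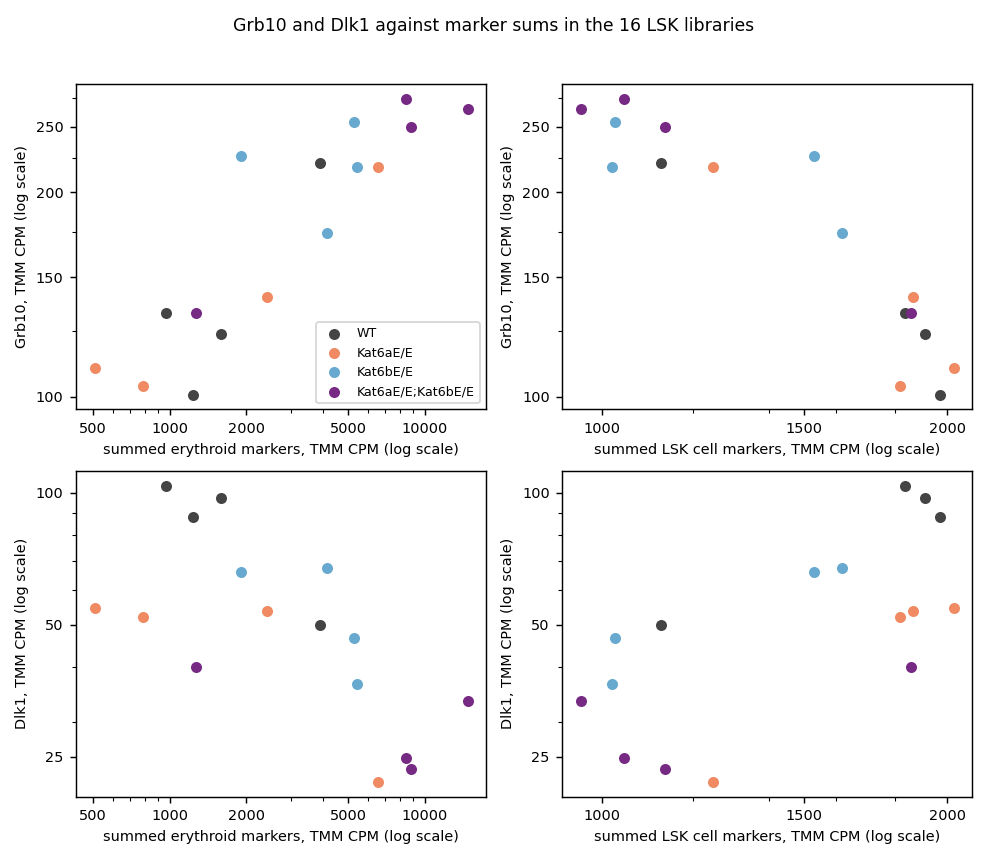
Levels of Grb10 and Dlk1 (CPM) in the 16 LSK libraries against the summed CPM of erythroid markers and of LSK markers, all on log axes, with 1 point per library coloured by genotype. Dlk1 is lower and Grb10 higher in the libraries with the highest erythroid sums.

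Neighbouring genes were compared across libraries after genotype means were removed, in 6 relations. Igf2 and H19, which share enhancers and are read from opposite parental copies, varied together in LSK cells (r = 0.794, adjusted permutation p = 0.0221, rho = 0.797, adjusted permutation p = 0.0293, n = 16, r = 0.766 without the 2 libraries most distant in Igf2). In embryos the relation did not pass (r = 0.472, adjusted permutation p = 0.153, rho = 0.463, adjusted permutation p = 0.151, n = 24, r = 0.306 without 2). Dlk1 and Meg3 gave r = 0.0841 in embryos and 0.189 in LSK cells, and Igf2 and its clearance receptor gene Igf2r gave 0.085 and -0.0727, none of which passed. No litter held the 6 libraries asked of a correlation here, so none was computed within a litter, and the permutations did not account for litter, which had a mean within-litter correlation of 0.35 in the LSK fit.

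The transcripts whose levels followed each member most closely over the 24 embryos were, as a description, different from member to member. Peg3 and Igf2r shared Fn1, which encodes fibronectin (r = 0.895 and 0.897), and followed each other (r = 0.887). Peg3 was closest to Ptprb, an endothelial phosphatase gene (r = 0.904), and had Peg10, another imprinted gene, as the third (r = 0.888). Meg3 was closest to Leng8 (r = 0.96), Gigyf1 (r = 0.958) and Ccnl2 (r = 0.951). H19 was closest to Hoxc8 (r = 0.807), Hoxa7 (r = 0.79) and the segmentation clock gene Hes7 (r = 0.787). Igf2 had Kcns3 (r = 0.746), Dlk1 had Pcolce (r = 0.86), Mest had Tfg (r = 0.802), Grb10 had Pcnx1 (r = 0.858) and Plagl1 had Agbl3 (r = 0.715) as the nearest. These libraries share depth and genotype, and no p is given.

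Among 22 further genes of the IGF and insulin pathway, 19 were tested in embryos and 14 in LSK cells. In Kat6a-/- embryos 1 of 19 rose and 2 fell (median -0.04 against 0.00 over all genes), where 2.7% of all genes were called. Igfbp5, an IGF binding protein, rose by 0.27 log2 (SE = 0.0508, FDR = 0.00792), and Irs4, an adaptor of the IGF and insulin receptors, fell by 0.55 (FDR = 0.0303), as did Pappa, a protease that frees IGF from its binding proteins, by 0.44 (FDR = 0.0496). Kat6aE/E differed from Kat6a-/- embryos in the opposite sense at Pappa (0.52, FDR = 0.0266) and Igfbp5 (-0.20, FDR = 0.045), a comparison that shares the Kat6a-/- embryos with the first. In Kat6aE/E LSK cells 0 of 14 rose and 3 fell (median -0.56 against -0.01), where 1.18% of all genes were called, a share that rests on 166 genes and moved from 2 to 478 genes under other settings or without 1 library. Igf2bp1, which encodes a binding protein of Igf2 mRNA typical of fetal cells, fell by 0.62 log2 (SE = 0.0822, FDR = 0.00393), and Stc1, an inhibitor of PAPPA, fell by 0.94 (FDR = 0.0433). Igfbp5 read 4.449, 2.883, 1.656 and 1.583 CPM in WT, 0 in Kat6aE/E replicates 1 to 3, which allows up to 0.17, 0.156 and 0.0953 CPM, and 0.4696 CPM in replicate 4 (FDR = 0.0188). Stc1 rose by 0.80 in double mutant embryos (FDR = 0.0231), where 2.72% of all genes were called. No gene of this list was called in the other comparisons with WT.

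Of 25 neighbours in the clusters of the members, 20 were tested in embryos and 13 in LSK cells, and none was called by limma in any comparison of genotypes. Of the 20 other imprinted genes tested in embryos, 3 fell in Kat6a-/-, where 2.7% of all genes were called. These were Peg13 by 0.41 log2 (SE = 0.0683, FDR = 0.00168), Peg12 by 0.28 (FDR = 0.00651) and Asb4 by 0.30 (FDR = 0.0389). Peg13, a non-coding RNA, also fell by 0.32 in Kat6b-/- (FDR = 0.0319), and was higher by 0.35 in Kat6aE/E than in Kat6a-/- (FDR = 0.00781). Peg12 fell by 0.94 in Kat6aE/E LSK cells (SE = 0.165, FDR = 0.017), the 1 call among 18 tested there, where 1.18% of all genes were called. Of 8 imprinting control factors, only Trim28 was called between genotypes. This corepressor, which binds imprinted control regions with zinc finger proteins, fell by 0.17 in double mutant embryos (FDR = 0.00542), where 2.72% of all genes were called. The non-coding Igf2os, singled out after its values were seen, fell by 0.28 in Kat6a-/- embryos (FDR = 0.0359). It lies antisense to Igf2, and in unstranded libraries its reads and those of Igf2 cannot be told apart where they overlap.

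Members also host microRNAs, whose hairpin precursors have rows of their own in the tables. The mature RefSeq sequences are shown with the seed (bases 2 to 8) in capitals to show that no seed is shared between them.
mmu-miR-675-5p (H19): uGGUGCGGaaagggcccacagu
mmu-miR-675-3p (H19): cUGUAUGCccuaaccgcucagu
mmu-miR-483-5p (Igf2): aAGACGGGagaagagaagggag
mmu-miR-483-3p (Igf2): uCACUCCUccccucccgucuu
mmu-miR-335-5p (Mest): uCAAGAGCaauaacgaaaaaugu
mmu-miR-335-3p (Mest): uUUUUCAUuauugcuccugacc
The row of Mir675 held 0 counts in all 40 libraries, although its host H19 was among the most abundant RNAs. Mir483 had 2 to 34 counts in embryos and 0 in 15 of 16 LSK libraries, and Mir335 had 0 to 32 counts in embryos and 0 in 13 of 16 LSK libraries. These libraries do not measure mature microRNAs.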

How the data were processed

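The deposited values were raw counts of read pairs per gene for each of the 40 libraries, which the authors made by aligning unstranded, poly(A)-selected paired-end reads to mm39 with Rsubread and counting over RefSeq genes with featureCounts. Genes on the Y chromosome were removed, all other gene types were kept (the study kept protein-coding genes), and embryos and LSK cells were filtered and TMM-normalized separately (15160 and 14115 genes). Following the study, limma 3.58.1 (voomLmFit) was fitted over all genes with 4 surrogate variables and a random effect of litter, and variances were moderated robustly, at FDR under 0.05 (R 4.3.3). WT LSK and WT embryos were compared with the quasi-likelihood test of edgeR 4.0.16. DESeq2 1.42.0, other numbers of surrogate variables, filters, normalizations and leaving out each library were alternatives. The limma fit of each tissue was tested on simulated counts without a litter effect, read for Kat6aE/E against WT only. The edgeR, DESeq2 and stage-difference results were not tested in this way. The stage difference divided the difference of both fits by their joint SE on 8 degrees of freedom. Correlations used 100000 permutations of log2 CPM within genotype, except the exact tests within the LSK marker sets, which permuted across genotypes. Named genes were the 9 members, at most 4 called genes of each list per comparison and the 3 genes closest to each member. Members and lists were chosen with earlier results of these data known. Chosen after seeing the data were the fits with marker covariates, without litter 1045 and without the Xist-high embryos. So were the relations of members to markers, the split by LSK marker sum, the counts of genes without overlap and the stage difference. Gene spans come from GENCODE (GRCm39), promoters and microRNAs from RefSeq (GRCm38.p6), and exon lengths from the count tables.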

Additional observations from a re-analysis of the deposited data

Results flagged for a closer look

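Among 90 groups of 4 libraries, 4 held a library whose gap to its nearest neighbour, relative to the range of the group, exceeded the 95% critical value of Dixon's test, and chance flags about 1 group in 20. Dlk1 in Kat6aE/E LSK cells was lowest at 21.92 CPM in replicate 2, with the other 3 libraries at 52.17 to 54.62 CPM (ratio 0.925). The erythroid marker sum of that library was 6551 CPM, against 509.8 to 2400 CPM in the other 3. H19 in Kat6bE/E LSK cells was highest at 229.5 CPM, with the next library at 168.4 and the lowest at 157.7 CPM (ratio 0.851). Plagl1 in Kat6aE/E embryos was highest at 256.8 CPM, with the others at 212.9 to 218.3 CPM (ratio 0.877). Grb10 in Kat6a-/- embryos was lowest at 1664 CPM, with the others at 1707 to 1715 CPM (ratio 0.843), a gap of a few percent of the level.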

How the results depend on the processing

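Of 1958 values of a member under an alternative, 1926 kept their side of the threshold (150 of them with a change of sign where neither value was called), 15 lost a call, 17 gained one and none was reversed. In Kat6aE/E LSK cells the count of members called, 1 as reported, was 0 without surrogate variables, without the litter block, with edgeR, without the filter, with protein-coding genes only (which leaves out Meg3), with the replicate block and with hepatocyte or erythroid markers as a covariate, 3 with 6 surrogate variables (Igf2 at -0.90, Dlk1 and Meg3), 2 with DESeq2 and without litter 1045, and 0 to 2 when 1 library was left out. With Xist as a covariate it was 1, Dlk1 (-0.67) in place of Meg3 (-1.10). In double mutant LSK cells the count, 0 as reported, was 1 (Dlk1) with 6 surrogate variables, with DESeq2 and without litter 1045, which leaves 1 double mutant library assumed to vary like the others, and 0 to 2 when 1 library was left out. For Kat6aE/E against Kat6a-/- embryos it was 1 with 6 surrogate variables (Meg3) and with DESeq2 (Dlk1), against 0 as reported. The counts for the other comparisons were unchanged under their alternatives, among them the embryos without the 3 Xist-high libraries. The cause of these changes was not tested. Calls over all genes moved more: 409 in Kat6a-/- embryos became 121 to 660, 72 in Kat6b-/- 0 to 192, 53 in Kat6aE/E 15 to 106, 412 in double mutants 0 to 788, and 166 in Kat6aE/E LSK cells 3 to 478 (2 to 269 with 1 library left out). In double mutant LSK cells 0 calls became up to 78, or 2641 without replicate 1, and in Kat6bE/E LSK cells 0 became 90 without WT replicate 4. The replicate numbers did not pair libraries (correlations of same-numbered libraries between -0.383 and 0.3), and the replicate block changed no member's call other than that of Meg3 in Kat6aE/E LSK cells (-1.16). In LSK cells Meg3 rested on 0 to 252 and Plagl1 on 13 to 226 read pairs per library, with coefficients of variation within genotype of 53% and 64.6%.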
